A study of Mus musculus with 4 samples.

Results

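Adrenomedullin, its close relative adrenomedullin 2, and the receptor parts through which both peptides act are described here in subcutaneous tumors of Lewis lung carcinoma (LLC) cells, a mouse lung cancer line. The set holds the ligand genes Adm and Adm2, the receptor gene Calcrl and the receptor-modifier genes Ramp1, Ramp2 and Ramp3, which are 6 of the 47729 genes listed in the table. The genes were selected on their role in 1 signaling system, at a time when the rises of Adm and Calcrl in this same comparison were already known. Their differences between the groups are therefore given as a description, without p-values.

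The study asked how the signaling protein chemerin affects tumor growth and vessels. Cells were grafted under the skin of the back of syngeneic C57BL/6 mice and the tumors were removed on day 5. The group labelled LLC-Chem came from cells carrying a pEFIN plasmid for murine chemerin (1-157), a form that the labels call full size and the study describes as active without further cleavage, and the group labelled LLC came from cells whose genotype is given as wild type. The study's methods describe selection of individual transfected clones, so a clone's own features and the plasmid cannot be told apart, and its text also describes control cells with an empty vector. Each group is represented by 2 RNA-seq libraries, each made from a pool of 3 tumors, so the host's vessels, leukocytes and stroma are sequenced together with the cancer cells. All p-values below measure only the spread between these pools.

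Adrenomedullin is a secreted peptide that widens blood vessels, tightens the endothelial barrier and is needed for the development of blood and lymphatic vessels, and its gene is a textbook target of hypoxia-inducible factors. CALCRL, the calcitonin receptor-like receptor, is a G protein-coupled receptor that needs a receptor activity-modifying protein (RAMP) to reach the cell surface, and the RAMP sets which peptide it binds best. With RAMP2 or RAMP3 it forms the AM1 or AM2 adrenomedullin receptor, with RAMP1 it forms the receptor for calcitonin gene-related peptide, and all of these raise cyclic AMP, mainly in endothelial and smooth muscle cells.

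The stretch of genome just upstream of Adm is shown because Adm is the ligand of the system and the tested member with the largest difference, and because genes of the hypoxia response are compared with it below. RefSeq's 250 bases before the Adm start, at chr7:110627407-110627656 of GRCm38.p6 on the plus strand, are printed 5′ to 3′ with matches to the core of the hypoxia response element in capitals.
Adm: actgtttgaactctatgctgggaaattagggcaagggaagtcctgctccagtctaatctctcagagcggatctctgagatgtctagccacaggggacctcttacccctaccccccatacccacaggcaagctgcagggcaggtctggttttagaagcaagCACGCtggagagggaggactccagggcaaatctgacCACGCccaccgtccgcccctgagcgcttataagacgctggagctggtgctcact
The letters searched were ACGTG and GCGTG on both strands. The Adm window held 2 matches, both to GCGTG on the minus strand and hence printed as CACGC, at 90 and 54 bases before the start, and no matches overlapped. A match was found in 38.6% of all 32851 mouse windows of this length, and 2 or more in 16.7%. Of the 5 members with a window, Ramp3 also held 2 matches, at 219 and 65 bases before its start, and Adm2, Calcrl and Ramp1 held 0. A match describes the letters only, and whether a factor was bound there was not measured.

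Expression was given as RPM, reads per 1000000 reads counted on genes, and the fitted library totals ran from 28470000 to 33990000 reads. At this depth 3 reads, taken as the detection limit, correspond to 0.0883 to 0.105 RPM, a limit that covers counting error only. Group differences are LLC-Chem minus LLC on the log2(RPM + 0.5) scale, which understates the change of weakly expressed genes, and a gene was called when its two-sided adjusted p in limma was under 0.05. A total of 13694 genes averaging 1 RPM or more were tested, their median difference was -0.04, and 1306 were called higher and 1848 lower. Rarres2, which encodes chemerin, was at 102.2 and 98.2 RPM in LLC and at 105.9 and 105.8 RPM in the LLC-Chem-labelled pools, a log2 difference of 0.08 (SE 0.09, limma adjusted p = 0.541). The transfected gene was thus only slightly higher in both LLC-Chem-labelled pools and was not called, and every direction below rests on the labels. The annotation lets 33.6% of the exon bases of Rarres2 overlap with Lrrc61, listed at 4.15 to 5.80 RPM, so reads in that stretch may be missing from it. A permutation of 2 pools against 2 cannot give a p below 0.33.

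Of the 6 adrenomedullin genes, 5 passed the filter on low values, and Adm2 did not. Adm and Calcrl were called higher, 2 of the 5 tested members, beside 9.54% of all tested genes, and 0 of the 5 were called lower, beside 13.5%. Both LLC-Chem-labelled pools lay above both LLC pools for the same 2 members, an order found in 33.1% of tested genes. Both lay below for Ramp1, as for 39.3% of tested genes, and the groups overlapped for Ramp2 and Ramp3. Since the choice of members used this comparison, nothing is read from these counts.

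**Figure D1:**
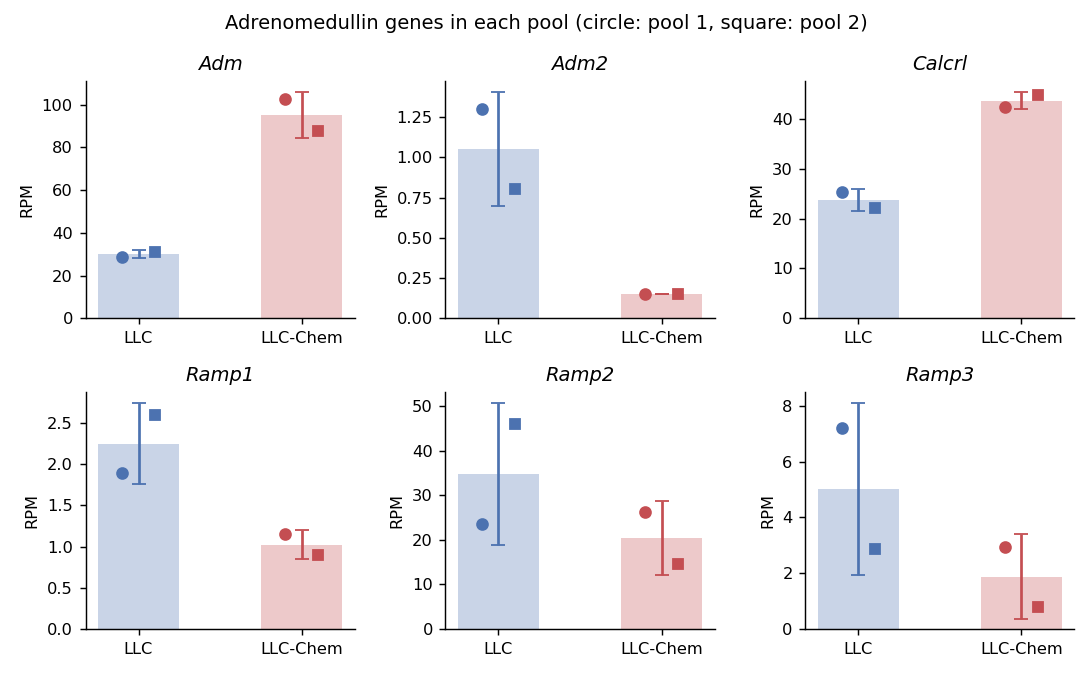
Level of each adrenomedullin gene in RPM, 1 panel per gene with its own axis from 0. Bars are means of 2 pools, error bars are the SD and markers are the pools (circle, pool 1, and square, pool 2): Adm and Calcrl are higher in both LLC-Chem-labelled pools, Adm2 and Ramp1 are lower in both, and the pools of Ramp2 and Ramp3 overlap between groups.

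Adm (ENSMUSG00000030790), the ligand gene, lies on chromosome 7 from 110627661 to 110629820 of GRCm38, plus strand. The LLC pools held 28.6 and 31.2 RPM, from 881 and 889 reads. The LLC-Chem-labelled pools held 102.7 and 87.6 RPM, from 3492 and 2937 reads. The groups did not overlap, and the lowest LLC-Chem pool stood far above the highest LLC pool. The mean rose from 29.9 ± 1.87 RPM to 95.1 ± 10.7 RPM (SD, n = 2), 3.18-fold, a log2 difference of 1.65 (SE 0.12). Pools of the same group differed by only 0.13 (LLC) and 0.23 (LLC-Chem) on the same log2 scale. Among all tested genes 0.73% had a larger positive difference. The antisense gene Gm28863 spans Adm without sharing any exon base with it and was listed at no more than 0.15 RPM.

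Adm2 (ENSMUSG00000054136; chromosome 15, 89322720 to 89324731, plus strand) encodes adrenomedullin 2, also called intermedin, which acts through the same receptors. The LLC pools held 1.3 and 0.8 RPM, from 40 and 22 reads. In each LLC-Chem-labelled pool it measured 0.15 RPM, from 5 reads. Adm2 was thus close to the detection limit in the pools with the most Adm. The 95% exact Poisson intervals were 0.927 to 1.77 and 0.484 to 1.17 RPM for the LLC pools and 0.0478 to 0.343 and 0.0484 to 0.348 RPM for the others, so the groups were apart beyond counting error. The mean was 7.0-fold lower, 0.15 against 1.05 RPM. Adm2 was below the filter for testing, and in a fit that kept genes averaging 0.2 RPM or more its log2 difference was -1.23 (SE 0.22). That order, LLC-Chem pools below LLC pools, was found in 36.9% of the 17084 genes in that fit and the opposite one in 31.4%. The ligand genes thus lay in opposite directions, with Adm far the more abundant in every pool.

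Calcrl (ENSMUSG00000059588; chromosome 2, 84330626 to 84425411, minus strand), the receptor gene that all 3 RAMPs share, stood at 25.3 and 22.2 RPM in LLC. The LLC-Chem-labelled pools held 42.5 and 44.9 RPM. The groups did not overlap. The mean rose from 23.7 ± 2.19 to 43.7 ± 1.70 RPM (SD, n = 2), 1.84-fold, with a log2 difference of 0.87 (SE 0.12) against gaps of 0.18 and 0.08 between pools of a group. Among tested genes 4.54% had a larger positive difference. The nearest gene on the same strand, Tfpi, which encodes an inhibitor of the tissue factor pathway of clotting, lies 7444 bases away and shares no exon base. Tfpi was at 95.60 and 89.35 RPM in LLC and at 118.03 and 131.93 RPM in the others, a log2 difference of 0.43 (limma adjusted p = 0.0415).

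None of the RAMP genes was called in this fit. Each passed in only 1 alternative: Ramp1 without the variance trend, Ramp2 with crossed pairs and Ramp3 with the replicate number as a block. The labels give no basis for either pairing, and the crossed pairs were added after seeing the data. Ramp2 (ENSMUSG00000001240; chromosome 11, 101246028 to 101259546, plus strand), the partner in the AM1 receptor, stood at 23.6 and 46.1 RPM in LLC, against 26.3 and 14.6 RPM in the LLC-Chem-labelled pools. The groups overlapped, because the LLC pool 1 lay below the LLC-Chem pool 1. Means were 34.9 ± 15.9 and 20.5 ± 8.27 RPM (SD, n = 2) and the log2 difference was -0.73 (SE 0.39), smaller than the gaps between pools of a group, 0.95 and 0.83. The difference was -0.26 without LLC pool 2 and -0.32 without LLC-Chem pool 2, and it was -1.21 without LLC pool 1 and -1.15 without LLC-Chem pool 1. The annotation lets 1103 of the 3301 exon bases of Ramp2 (33.4%) overlap with Vps25, an endosomal sorting gene listed at 0.10 to 0.40 RPM, so reads in the shared stretch may be missing from either gene.

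Ramp3 (ENSMUSG00000041046; chromosome 11, 6658521 to 6677475, plus strand), the partner in the AM2 receptor, stood at 7.2 and 2.85 RPM in LLC. It stood at 2.95 and 0.8 RPM in the LLC-Chem-labelled pools. The lower LLC pool and the higher LLC-Chem pool were at nearly the same level, so the groups overlapped. Means were 5.02 ± 3.07 and 1.87 ± 1.52 RPM (SD, n = 2) and the log2 difference was -1.26 (SE 0.59), against gaps of 1.20 and 1.41 between pools of a group. Leaving out LLC pool 1 or LLC-Chem pool 2 brought it to -0.66 or -0.56, and leaving out LLC pool 2 or LLC-Chem pool 1 brought it to -1.86 or -1.97. Ramp3 shares 101 exon bases with the pseudogene Gm11978, which was listed at 0 RPM in all 4 pools.

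Ramp1 (ENSMUSG00000034353; chromosome 1, 91179822 to 91225196, plus strand), which turns CALCRL into the receptor for calcitonin gene-related peptide, was the RAMP gene with the lowest level per length. Its LLC pools held 1.9 and 2.6 RPM, and its LLC-Chem-labelled pools 1.15 and 0.899 RPM. The groups did not overlap. Means were 2.25 ± 0.495 and 1.02 ± 0.177 RPM (SD, n = 2), 2.2-fold lower, with a log2 difference of -0.84 (SE 0.26) that did not pass the threshold here and passed without the variance trend.

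Levels of the member genes were compared with each other only per length, as RPM per kilobase of merged exon. In the LLC pools the mean order was Adm at 18.5, Ramp2 at 10.6, Calcrl at 4.86, Ramp3 at 3.64, Adm2 at 0.809 and Ramp1 at 0.744 RPM per kilobase. In the LLC-Chem-labelled pools it was Adm at 58.8, Calcrl at 8.95, Ramp2 at 6.21, Ramp3 at 1.36, Ramp1 at 0.339 and Adm2 at 0.115 RPM per kilobase. With the full exon length of Ramp2, Adm was first in every pool and the means of Calcrl and Ramp2 stood in opposite orders in the groups. Not all neighbors in these orders were apart. Ramp3 at 5.21 and 2.06 overlapped Calcrl at 5.18 and 4.54 in the LLC pools, and Adm2 at 1.0 and 0.616 overlapped Ramp1 at 0.628 and 0.86 there. Ramp2, at 7.15 and 14.0, lay above Calcrl in both LLC pools, and at 7.98 and 4.44 it lay below Calcrl, at 8.7 and 9.19 RPM per kilobase, in both LLC-Chem-labelled pools. Over only the exon bases that Ramp2 does not share, it was at 10.7 and 21 RPM per kilobase in the LLC pools, above Adm in LLC pool 2, and at 12.0 and 6.66 in the LLC-Chem-labelled pools, above Calcrl in pool 1 and below it in pool 2. Both the first place of Adm and the reversal of order thus depend on the length used.

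**Figure D2:**
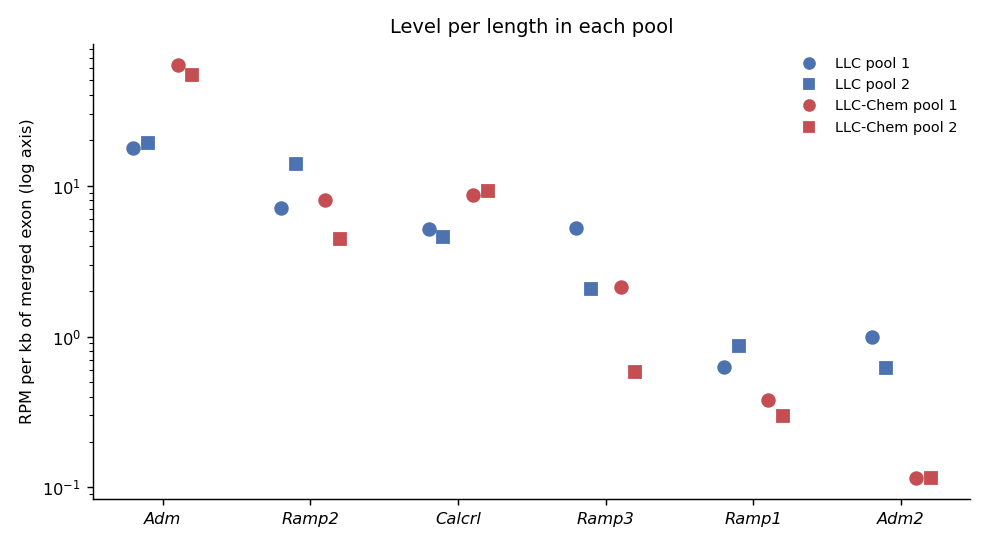
Level per length of the adrenomedullin genes in each pool, in RPM per kilobase of merged exon on a log axis. Each marker is 1 pool (circle, pool 1, and square, pool 2), and with the full exon length of Ramp2, as drawn, Adm is the highest gene in all 4 pools.

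The balance between receptor and modifiers followed from these levels. The 3 RAMP genes summed to 13.0 and 16.9 RPM per kilobase in the LLC pools and to 10.5 and 5.31 in the LLC-Chem-labelled pools. The ratio of Calcrl to this sum was 0.399 and 0.269 in the LLC pools and 0.829 and 1.73 in the others, without overlap. Against Ramp2 alone the ratio of Calcrl was 0.725 and 0.325, then 1.09 and 2.07. With Ramp2 counted over only the exon bases it does not share, the ratios to Ramp2 became 0.483 and 0.217, then 0.726 and 1.38, and the groups were still apart. The ratio of Adm to Calcrl was 3.41 and 4.24 in the LLC pools and 7.29 and 5.89 in the LLC-Chem-labelled pools.

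Ramp2 was the main modifier in every pool. It made up 55.0% and 82.7% of the summed RAMP level in the LLC pools and 76.0% and 83.5% in the others, and Ramp3 made up 40.1% and 12.2%, then 20.4% and 10.9%. LLC pool 1 thus stood apart through its Ramp3. Ramp1 held from 3.62% to 5.6% in all 4 pools. With only the unshared bases of Ramp2, its share was 64.7%, 87.8%, 82.6% and 88.4% in the same order of pools. The shares of all 3 RAMP genes overlapped between the groups, while the ratio of Calcrl to their sum did not. Calcrl was chosen with its rise in this comparison known, so nothing is read from the separation of its ratios.

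**Figure D3:**
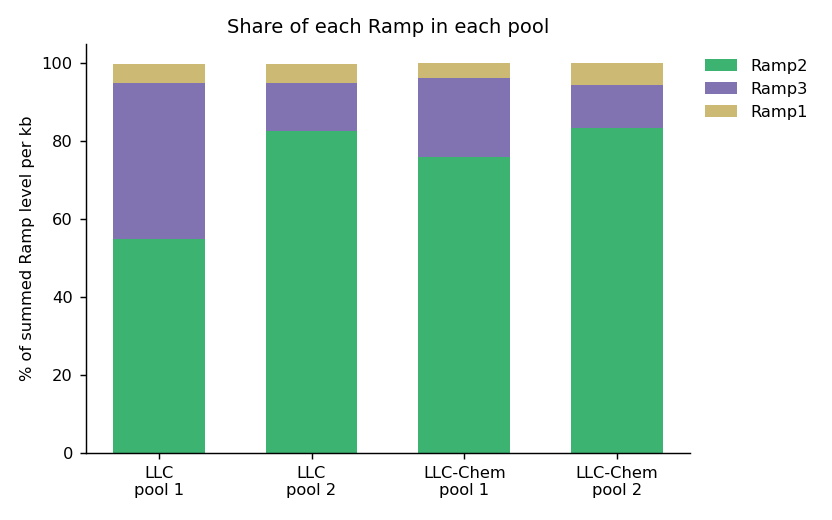
Share of each RAMP gene in the summed RAMP level per kilobase, in percent, as 1 stacked bar per pool. Ramp2 holds the largest share in all 4 pools, from 55.0% to 83.5%, and Ramp1 the smallest.

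Other genes that process, bind or remove adrenomedullin, and the other ligands and receptors of the calcitonin family, made a list of 10, of which 4 were tested, 2 were called higher and 0 lower, with a median difference of 0.09 (from -0.06 to 0.15 over the settings run) beside -0.04 over all tested genes. Pam, the enzyme that amidates the end of the peptide and so makes it active, measured 297.0 and 333.3 RPM against 431.8 and 495.0 RPM. Its log2 difference was 0.55 (SE 0.13, limma adjusted p = 0.0353), and the call was lost in limma without the variance trend (adjusted p = 0.0611).

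Ackr3 and Crcp, from the same list, did not pass. Ackr3, an atypical chemokine receptor that can take up adrenomedullin, was at 91.8 and 195.4 RPM in LLC and at 70 and 74.2 RPM in the others, a log2 difference of -0.89 with limma (adjusted p = 0.107) that passed with DESeq2 (adjusted p = 0.0189). Crcp, whose product couples CALCRL to its signaling, was at 26.6 ± 1.1 and 20.4 ± 1.8 RPM (SD, n = 2), a log2 difference of -0.37 (limma adjusted p = 0.0916). The competing ligands and the sister receptor were scarce. Calca and Calcb, the genes for calcitonin gene-related peptide, were listed at no more than 0.0999 and 0.3 RPM, Calcr, the calcitonin receptor, at no more than 0.15 RPM, and Iapp, the gene for amylin, at 0 in all 4 pools. Mme, a peptidase that breaks down small peptides, and Gpr182, an endothelial receptor, were at 0.4 to 1.2 and 0.65 to 1.3 RPM and below the filter.

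A further list of 10 receptors that can pair with RAMPs had 1 tested member. Pth1r, the receptor for parathyroid hormone, fell from 11.8 ± 0.389 to 4.6 ± 1.70 RPM (SD, n = 2), a log2 difference of -1.31 (limma adjusted p = 0.0277).

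Genes of cyclic AMP signaling, the pathway below the receptor, did not move one way. Of 28 listed, 25 were tested, 3 were called higher and 7 lower, and the median difference was -0.06, from -0.12 to 0.04 over the settings run. Pde3b, which breaks down cyclic AMP, and Adcy3, which makes it, rose by 0.84 and 0.75 on the log2 scale (limma adjusted p = 0.0265 and 0.0361). Prkar1b, a regulatory subunit of protein kinase A, and the cyclase gene Adcy4 differed by -1.67 and -1.44 (adjusted p = 0.0117 and 0.0215). The call of Adcy3 was lost without the variance trend (adjusted p = 0.0578). Prkar1a, the gene of the list with the highest mean RPM over the 4 pools (not scaled to length, here and in the lists below), was at 407.0 and 442.4 RPM, a difference of 0.12 (adjusted p = 0.454).

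Arrb1, Arrb2 and Grk2, the genes of that list whose products switch off activated receptors, were singled out after their values were seen, and 2 of the 3 were called lower. Arrb2 was at 115.7 and 115.5 RPM in LLC and at 65.3 and 60.5 RPM in the LLC-Chem-labelled pools, a log2 difference of -0.87 (limma adjusted p = 0.0117). Grk2 measured 163.0 and 175.6 RPM against 129.0 and 109.8 RPM, a difference of -0.51 (limma adjusted p = 0.0367) that did not pass with edgeR (adjusted p = 0.0533). Arrb1 was at 59.7 and 67.5 RPM in LLC and at 49.9 and 34.5 RPM in the others, a difference of -0.61 that was not called (limma adjusted p = 0.0713).

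Other vasoactive peptides and their receptors, a list of 33, had 17 tested genes, 0 called higher and 7 called lower, with a median of -0.89. Aplnr, the apelin receptor of endothelium, fell by 2.21 on the log2 scale, from 25.9 ± 10.6 to 5.05 ± 1.13 RPM (SD, n = 2; limma adjusted p = 0.0149). Bdkrb1, an inducible bradykinin receptor, fell by 2.10 (adjusted p = 0.0193). Ednrb, an endothelin receptor gene with the highest mean RPM of the list, overlapped between the groups at 62.8 and 87.2 against 93.3 and 46.1 RPM. Agtr2, an angiotensin receptor gene named here after its values were seen, had a log2 difference of 1.81 (SE 0.72) that was not called (limma adjusted p = 0.119), at 0.55 and 3.65 RPM in LLC and 10.7 and 4.3 RPM in the others. It was the 1 gene of this list called higher with crossed pairs.

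Of 20 genes induced by hypoxia, all were tested, 11 were called higher and 1 lower, and the median difference was 0.65, or 0.43 without LLC pool 2. This list overlaps one that the study drew up on these samples, so its direction is not independent evidence. Kdm3a, a histone demethylase, and Ankrd37 had the largest differences, 1.23 and 1.20 (limma adjusted p = 0.0105 and 0.0172). Pfkfb4, a regulator of glycolysis, differed by -0.72 (limma adjusted p = 0.0411), a call that was lost with TMM scaling (adjusted p = 0.0532). The glycolytic gene Ldha, highest in mean RPM, differed by 0.38 (limma adjusted p = 0.153). Of the 20 genes, 0 had a larger difference than the 1.65 of Adm. Adm and the list were chosen with earlier results of these data known, so nothing is read from this rank.

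**Figure D4:**
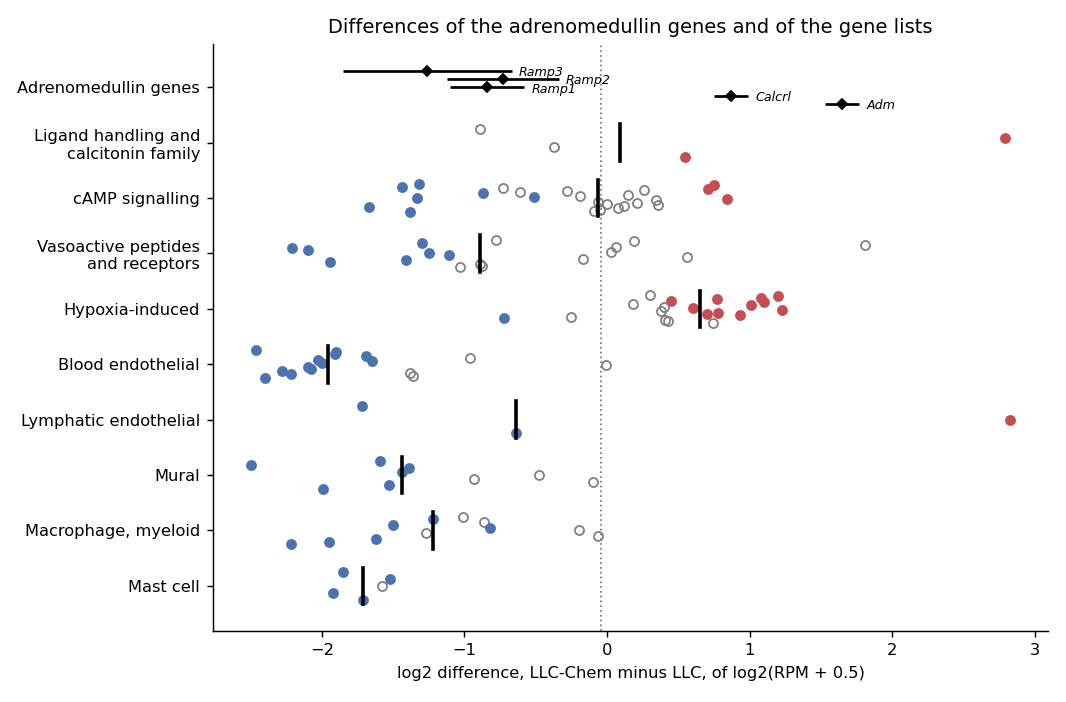
Log2 differences, LLC-Chem minus LLC, of the 5 tested adrenomedullin genes (diamonds, bars are the SE) and of the tested genes of 9 lists (circles, filled where called, red higher and blue lower, black lines are list medians). The dotted line is the median of all tested genes, -0.04. Adm lies above every gene of the hypoxia list, and Calcrl lies on the opposite side of that line from the blood endothelial median. Both were chosen with their rises known.

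Markers of the cells that usually carry these receptors moved with the groups. Of 16 blood endothelial markers, all were tested, 0 were called higher and 12 lower, with a median of -1.96 and a summed level of 283.6 to 370.7 RPM in LLC against 77.8 to 116.6 RPM in the LLC-Chem-labelled pools. Cdh5, the cadherin of endothelial junctions, Tie1, an endothelial receptor kinase, and Pecam1, which marks endothelial junctions and had the highest mean RPM over the 4 pools though not within the LLC-Chem-labelled ones, differed by -2.46, -2.40 and -2.08 (limma adjusted p = 0.0141, 0.021 and 0.0204). Flt1, which encodes a VEGF receptor, was at 20.6 ± 6.43 and 19.9 ± 1.45 RPM (SD, n = 2) and was not called. Of 9 mural markers, the genes of pericytes and smooth muscle, 0 were called higher and 6 lower, with a median of -1.44 and sums of 214.0 to 262.5 against 58.2 to 87.1 RPM. Among them Acta2, Rgs5 and Pdgfrb differed by -2.50, -1.99 and -1.53 (limma adjusted p = 0.01, 0.015 and 0.013). In bulk tumor RNA fewer cells of a type and less RNA per cell cannot be told apart, and the part that cell makeup has in the member genes' values was not tested.

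Calcrl was therefore also set against the endothelial markers within each pool, as its log2 level minus the mean log2 level of the 16 markers. It was 0.51 and 0.80 above that mean in the LLC pools and 2.92 and 3.68 above it in the LLC-Chem-labelled pools, a difference of 2.65. Ramp2 was 0.41 and 1.84 above, then 2.24 and 2.10 above, a difference of 1.04 that was 0.33 without LLC pool 1 and 1.76 without LLC pool 2. Both LLC-Chem-labelled pools thus lay above both LLC pools for Ramp2 on this relative scale, by little over LLC pool 2. Ramp1 stood at -2.92 and -2.07, then -1.78 and -1.34. Ramp3 stood at -1.24 and -1.96, then -0.72 and -1.44, with overlap. The mean of the markers itself was 4.18 and 3.70, then 2.50 and 1.82, a difference of -1.78. A gene with the same level in both groups would thus rise on this relative scale by the size of that fall. Calcrl, at 2.65, rose by more, as its own level was higher. Ramp2 at 1.04, Ramp1 at 0.93 and Ramp3 at 0.52 rose by less, as their own mean log2 levels were lower. All these relative values share the marker mean, so they are not independent of each other.

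**Figure D5:**
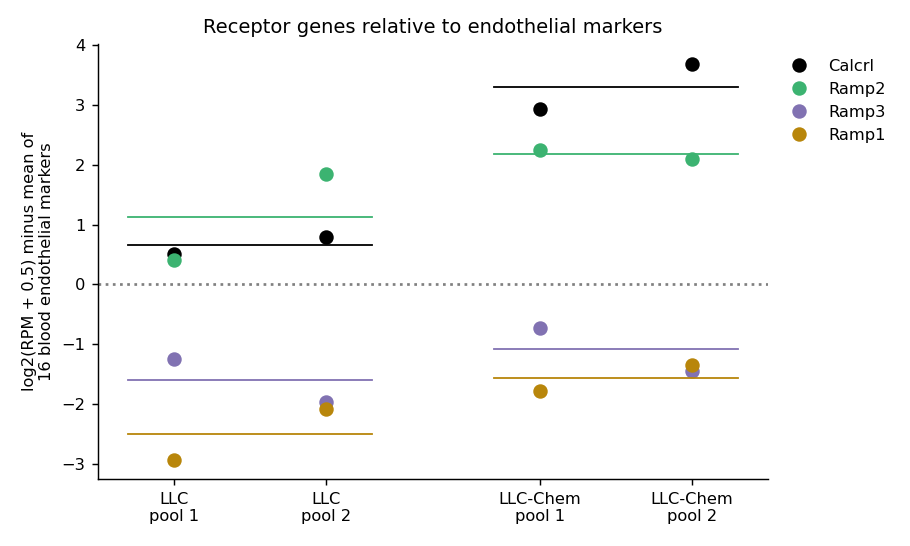
Log2 level of the receptor and RAMP genes minus the mean log2 level of 16 blood endothelial markers, in each pool. The marker mean itself differed by -1.78 between the groups, which shifts every gene upward in the LLC-Chem-labelled pools on this scale. Points are pools and short lines are group means; Calcrl runs from 0.51 to 0.80 in the LLC pools and from 2.92 to 3.68 in the LLC-Chem-labelled pools.

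The lymphatic markers split. Of 7 listed, 3 were tested, 1 was called higher and 2 lower, with sums of 170.1 and 180.6 RPM in LLC and of 276.2 and 216.6 RPM in the others. Lyve1, a hyaluronan receptor of lymphatic vessels that some tissue macrophages also carry, measured 22.4 and 18.1 RPM against 176.7 and 120.4 RPM, a log2 difference of 2.83 (limma adjusted p = 0.00665). Pdpn, which encodes podoplanin and is also made by stromal and tumor cells, differed by -0.64 (limma adjusted p = 0.0178). Flt4, the receptor of lymphatic growth factors, differed by -1.72 (limma adjusted p = 0.0382), a call lost with edgeR (adjusted p = 0.0654). Prox1, the defining transcription factor of lymphatic endothelium, was at no more than 0.3 RPM and Ccl21a was listed at 0.

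Leukocyte and other markers moved beside the member genes as well. Of 11 macrophage and myeloid markers, 0 were called higher and 6 lower, or 3 lower without the variance trend (median -1.22, and -0.72 without LLC-Chem pool 2), with sums of 4266.3 and 7118.8 RPM in LLC and of 3508.8 and 1848.1 RPM in the others. S100a9 and S100a8, which encode calcium-binding proteins of neutrophils, differed by -2.22 and -1.95 (limma adjusted p = 0.041 and 0.0387), calls lost without the variance trend (adjusted p = 0.0668 and 0.0623), and the lysozyme gene Lyz2 by -1.27 (adjusted p = 0.106). Of 5 mast cell markers 0 were called higher and 4 lower, with a median of -1.71. The mast cell proteases Mcpt4, Cma1, Tpsb2 and Cpa3 differed by -1.92, -1.85, -1.71 and -1.52 (limma adjusted p = 0.0349, 0.0332, 0.0335 and 0.0462), and these calls were lost without the variance trend. Of 9 lymphoid markers 3 were tested, and Klrb1c and Ncr1, receptors of natural killer cells, were called lower, at -2.28 and -2.20 (limma adjusted p = 0.0117 and 0.0127).

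Of 5 fibroblast markers 1 was called higher and 2 lower, with a median of 0.72 that was 0.45 without LLC pool 1. The collagen genes Col1a1 and Col1a2 differed by -1.51 and -1.46 and the growth factor receptor gene Pdgfra by 0.72 (limma adjusted p = 0.0334, 0.0383 and 0.045). The calls of Col1a2 and Pdgfra were lost with the filter of 0.2 RPM (limma adjusted p = 0.0508 and 0.055). With the replicate block the calls of Col1a1, Col1a2 and Pdgfra were all lost (limma adjusted p = 0.0857, 0.0871 and 0.0658). Of the adipocyte markers 3 of 5 were tested (median 0.87, but 0.13 without LLC-Chem pool 1 and 1.60 without LLC-Chem pool 2) and 1 was called higher, Cfd, which encodes the complement protease adipsin, at 2.16 (limma adjusted p = 0.0466, and 0.0581 with the filter of 0.2 RPM), while Fabp4 did not pass, at -0.67 (SE 0.38). Of the skeletal muscle markers 1 of 5 was tested and called higher, the troponin gene Tnnt3, at 1.21 (limma adjusted p = 0.0419), with Ckm and Myh4 listed at 0. Keratinocyte (Krt10 alone tested, -0.66, and -0.40 without LLC pool 2), erythroid (4 of 4 tested) and peripheral nerve markers (3 of 5 tested) had 0 calls with limma. The erythroid median of -1.09 ran from -3.17 without LLC-Chem pool 1 to 0.77 without LLC-Chem pool 2, so its sign turned, and it was -0.45 and -1.74 without LLC pool 1 and 2. The nerve median of 0.56 was 0.00 without LLC pool 2 and 0.37 without LLC-Chem pool 2. The erythroid sum, led by the globin gene Hbb-bs, ranged from 3.8 to 124.2 RPM among the LLC-Chem-labelled pools alone.

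The genes whose profile over the 4 pools was most like each member's were found by the root mean square difference of centered log2 values, as a description. For Adm they were 4930447F24Rik (0.059), Rgma (0.059), which encodes a guidance molecule, and Epha3 (0.090), an ephrin receptor, and only 6 genes came within 0.1. For Ramp2 they were St3gal5 (0.055), a sialyltransferase, Igfbp5 (0.081), a binding protein of insulin-like growth factors, and Fam124a (0.086), with 9 genes within 0.1. Ramp3 had Msln (0.094), which encodes mesothelin, as the 1 gene within 0.1, followed by Rtn4rl2 (0.129) and Serpina3c (0.157). Few genes thus lay within 0.1 of Adm, Ramp2 or Ramp3. The values were centered but not scaled. A gene with large differences between pools can therefore have few genes within 0.1, whatever its order over the pools. By the same measure Calcrl had 165 genes within 0.1, led by Cbx6 (0.013), Tcf7l2 (0.016) and Fbxl16 (0.023). Ramp1 had 121, led by Ablim3 (0.015), Zfp709 (0.017) and 5031414D18Rik (0.018).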

How the data were processed

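RNA from 4 pools of subcutaneous tumors was sequenced in paired ends. The authors mapped reads to GRCm38.p4 (mm10) with STAR, counted reads per Ensembl gene with HTSeq, and deposited RPM values for 47729 genes. Tool versions and the use of strand in counting are not given in the sources used here. In each pool 99.88% or more of the RPM values are whole steps of 0.04997 RPM to within 0.0001 RPM. Reads were recovered from these steps with the fitted library totals, and the higher count was taken where several fitted. The recovery is within 1 read only if the fitted totals are exact.

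The deposited RPM were fitted with limma 3.58.1 in R 4.3.3 (lmFit, eBayes with trend) on log2(RPM + 0.5), without a replicate block, and p-values were adjusted by the Benjamini-Hochberg method over the 13694 genes averaging 1 RPM or more. Recovered reads were fitted with edgeR 4.0.16 (quasi-likelihood) and DESeq2 1.42.0 as alternatives. Other alternatives were pseudocounts of 0.1 and 1 RPM, TMM and median-of-ratios scaling, other filters, eBayes without trend, a replicate block and leaving out each pool. A crossed block and edgeR with the filter of 0.2 RPM were added after seeing the data.

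The members and the 17 gene lists (184 entries) were chosen with earlier results of these data known. Named were all members, all tested genes of the ligand-handling list, and from each other list all called genes where 4 or fewer were called or otherwise the 2 largest differences in each direction, with the gene of the highest mean RPM. Of the genes that this rule names, 2 are not reported here. Arrb1, Arrb2, Grk2, Agtr2, Flt1 and Prox1 were named after their values were seen. Where a symbol had several identifiers the one with the highest mean was used. Coordinates, exon lengths and neighbors were taken from GENCODE M21 (GRCm38). It lists 47310 of the identifiers (99.1%) and is not the release used in counting. Upstream windows are RefSeq's. Summaries used Python 3.11.15, numpy 2.4.6, pandas 2.3.3, scipy 1.17.1 and matplotlib 3.10.9.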

Additional observations from a re-analysis of the deposited data

How the results depend on the processing

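Every difference of the members kept its sign under all alternatives run, over which it ranged from 1.54 to 1.76 for Adm, 0.78 to 0.96 for Calcrl, -1.10 to -0.66 for Ramp1, -1.21 to -0.26 for Ramp2 and -1.97 to -0.56 for Ramp3. Ramp1 was -1.09 with edgeR, at either filter, and -1.10 with DESeq2, and Adm2 was -2.72 with edgeR against -1.23 with limma. Ramp1 passed the threshold only without the trend, Ramp3 only with the replicate block and Ramp2 only with the crossed block, among the settings run. Testing all 26260 genes above 0 left 1 gene called higher and 0 lower with limma (3394 and 4003 at an unadjusted p under 0.05), and leaving out any 1 of the 4 pools left 0 to 0 higher and 0 to 0 lower (998 to 2359 and 1580 to 2823 unadjusted), with fewer samples and a lone pool assumed to vary like the other group. A replicate block on the pool number gave 549 higher and 1064 lower. The labels give no shared source for same-numbered pools, whose deviations had a correlation of -0.1405 across 13694 genes. With so few pools this correlation cannot show whether same-numbered pools shared a batch. A crossed pairing gave 1579 higher and 2320 lower. Calls were 1551 and 1600 with edgeR, 1876 and 2271 with DESeq2, and 891 and 1271 without the trend. Relative to Pecam1 and Cdh5 alone in place of 16 markers, the difference of Calcrl was 3.14 and that of Ramp1 1.43, and that of Ramp1 against all 16 ranged from 0.51 to 1.36 when 1 pool was left out. These relative differences include the fall of the markers themselves. Depth limited Adm2, at 5 reads in each LLC-Chem pool.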
